A study of Mus musculus with 2 samples.

Results

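Mir22, Mir132 and Mir212 are 3 miRNA genes of mouse chromosome 11 that have been linked to the growth of heart muscle under load. They were taken by name from the 2202 annotated miRNA genes, and all 3 were found by gene identifier. They were selected on sense-strand read counts scaled to each library, which were already known for these hearts, so their levels are given as a description with no test. The material was whole heart from male B6CASTF1/J mice aged 36 days by the age label (a free-text label gives the same number in months). These are F1 hybrids of the inbred strains B6 and CAST. RNAs shorter than 30 bases were sequenced from total RNA in 2 libraries, numbered as biological replicates 1 and 2, from differently numbered males that carry the same donor record. No animal was labelled as treated, operated or mutant, so both libraries form 1 group and no load or disease was compared.

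Heart muscle cells enlarge when the load on the heart rises, a change called hypertrophy, and several miRNAs alter how far this goes. A miRNA is cut from a hairpin RNA and pairs with messenger RNAs through its seed, the bases near its 5′ end. Mir22 is known as an abundant miRNA of heart and skeletal muscle that represses Sirt1 and Hdac4, and mice without it have been reported to mount a blunted hypertrophic response. Mir132 and Mir212 are made from a shared primary transcript. They are known to be induced by the transcription factor CREB, to repress the growth-limiting factor Foxo3, and to cause hypertrophy and heart failure when overproduced in heart muscle.

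The mature sequences show which of the 3 genes can act through a common seed. They are RefSeq sequences on GRCm38.p6, the assembly called mm10 in the labels, written 5′ to 3′ with the seed (bases 2 to 8) in capitals.
mmu-miR-22-3p: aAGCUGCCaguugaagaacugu
mmu-miR-22-5p: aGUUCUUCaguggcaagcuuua
mmu-miR-132-3p: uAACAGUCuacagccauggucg
mmu-miR-132-5p: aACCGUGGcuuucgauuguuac
mmu-miR-212-3p: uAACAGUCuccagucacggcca
mmu-miR-212-5p: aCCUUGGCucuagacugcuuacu

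miR-132-3p and miR-212-3p carried the same seed, and no other mature miRNA among the 1738 in the sequence table had it. The seeds of miR-22-3p, miR-22-5p, miR-132-5p and miR-212-5p were each held by 1 mature miRNA in that table. The shared pair matched at 17 of 22 bases, with the first 9 bases identical. The differences, written as the base of miR-132-3p, the position from its 5′ end and the base of miR-212-3p, were A10C, C14U, U17C, U20C and G22A. All of them lie outside the seed.

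The hairpins matter because each count sums every read of a hairpin, whichever arm it came from. Capitals mark the mature arms.
Mir22 hairpin: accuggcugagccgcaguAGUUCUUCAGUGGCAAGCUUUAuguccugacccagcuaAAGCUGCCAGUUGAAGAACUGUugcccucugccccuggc
Mir132 hairpin: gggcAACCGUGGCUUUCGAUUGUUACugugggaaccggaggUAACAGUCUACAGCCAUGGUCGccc
Mir212 hairpin: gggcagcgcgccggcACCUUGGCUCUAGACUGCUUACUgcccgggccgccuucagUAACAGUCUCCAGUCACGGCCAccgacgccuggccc

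None of the 6 mature sequences occurred in another of the 2202 annotated hairpins. This bears on the counts, because reads that mapped to several places were assigned to no gene. Copies outside annotated hairpins, and differences of the CAST strain from the reference sequence, were not examined. The longest stretch shared with any other annotated hairpin, on either strand, was 13 bases for Mir22, 11 for Mir132 and 12 for Mir212. The Mir132 and Mir212 hairpins shared at most 10 bases with each other. By contrast, 1032 of the 2202 hairpins share a stretch of 22 bases, the length of a mature miRNA, with a hairpin elsewhere in the genome. The hairpin of Mir212 had the highest GC content of the 3, at 69.2%, against 57.6% for Mir132 and 55.8% for Mir22. The median was 51.2% over the 344 genes with 10 or more reads summed over both libraries.

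All 3 hairpins lie on the plus strand. Mir212 (ENSMUSG00000065590.1, chr11:75173388-75173478) lies 203 bases upstream of Mir132 (ENSMUSG00000065537.2, chr11:75173682-75173747). Both are inside intron 1 of the noncoding RNA 1700016P03Rik, which runs from 75172598 to 75173977. Mir22 (ENSMUSG00000065529.1, chr11:75463716-75463810) starts 290034 bases further along than Mir132. It lies wholly within exon 2 of its noncoding host Mir22hg, in both annotated transcripts of that host. The same stretch is exon 2 of a noncoding transcript of Tlcd2, and no coding or untranslated part of a coding transcript overlaps the hairpin. Mir22 is thus exonic in the annotation while Mir132 and Mir212 are intronic. The host RNAs were not measured here.

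**Figure D1:**
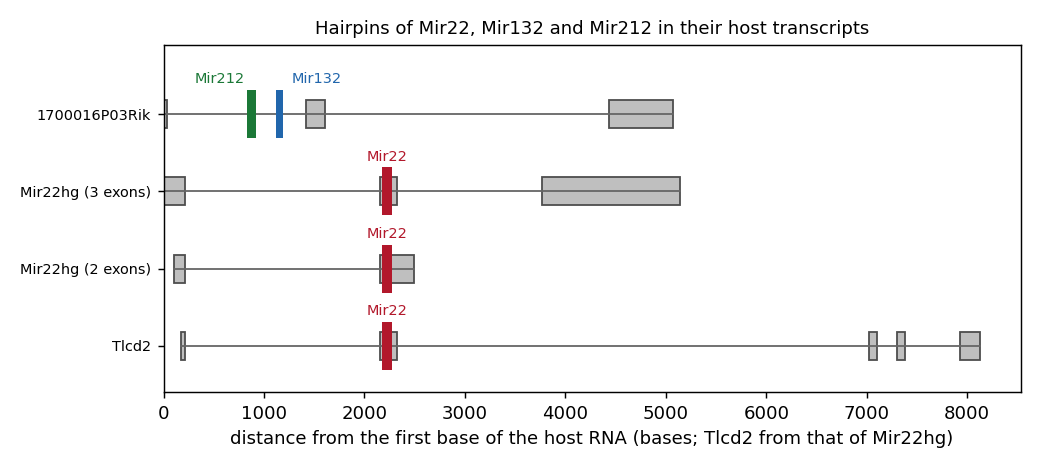
Hairpins of Mir22, Mir132 and Mir212 (colours) drawn to scale in their annotated host transcripts, with exons as grey boxes, introns as lines, and distance in bases from the first base of the host on the horizontal axis. Mir212 and Mir132 sit in the first intron of 1700016P03Rik, and Mir22 sits inside the second exon of each of its 3 overlapping transcripts.

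The libraries held 1999362 and 1862526 sense-strand reads assigned to miRNA genes, 36.5% and 38.1% of all reads. A further 41.5% and 42.9% of reads mapped to several places and were not assigned. Levels are counts per 1000000 of assigned sense-strand reads (CPM), and intervals are exact Clopper-Pearson 95% intervals for counting error only. Of the heart muscle markers, Mir208a was at 5198 ± 2553 CPM and Mir499 at 2239 ± 1277 (SD, n = 2), so defining markers of heart muscle were present. Mir1a-1, Mir1a-2, Mir133a-1 and Mir133a-2, which share 22 bases with another locus, held between 2.04 and 56.1 CPM.

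Mir22 was among the most abundant miRNA genes of these hearts. It had 48930 reads in library 1 and 112660 in library 2, or 24473 CPM (interval 24259 to 24688) and 60488 CPM (60146 to 60831). Its mean was 42480 ± 25466 CPM (SD, n = 2), which is 4.25% ± 2.55 of assigned reads. Library 2 was the high one, and Mir22 ranked 13 in library 1 and 5 in library 2.

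Mir132 stood far below Mir22. It had 1136 reads in library 1 and 1232 in library 2, or 568 CPM (536 to 602) and 661 CPM (625 to 699), a mean of 614.8 ± 66.0 CPM (SD, n = 2). Library 2 was again the higher, and the intervals of the 2 libraries did not overlap. Its rank was 83 in library 1 and 82 in library 2.

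Mir212, the neighbour with the same 3p seed, was lower again and rested on few reads. It had 36 reads in library 1 and 35 in library 2, or 18.0 CPM (12.6 to 24.9) and 18.8 CPM (13.1 to 26.1), a mean of 18.4 ± 0.556 CPM (SD, n = 2). The intervals overlapped nearly whole, so no difference between the libraries was detectable at this depth. The SD is smaller than counting error alone would give for so few reads. Its rank was 233 of the 586 genes with a read in library 1, and 217 of 550 in library 2.

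**Figure D2:**
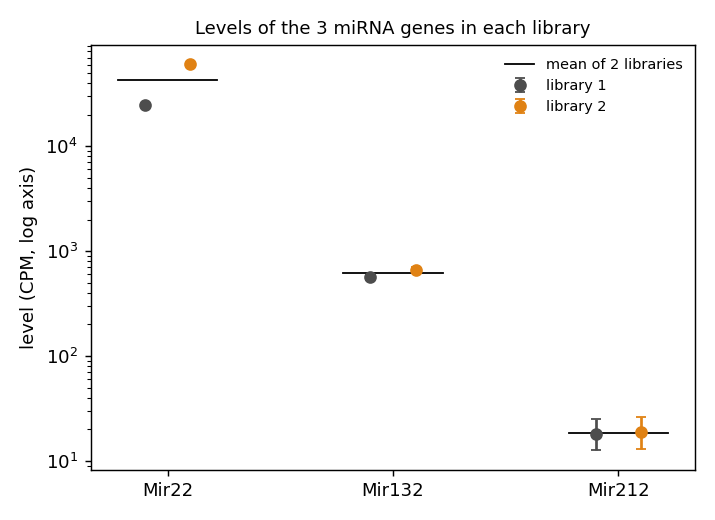
Levels of Mir22, Mir132 and Mir212 in CPM on a log axis, with 1 point per library, bars for the exact 95% interval (smaller than the point for Mir22) and a line at the mean of 2 libraries. Mir22 lies at 24473 CPM or more in both libraries, Mir132 between 568 and 661 and Mir212 between 18.0 and 18.8.

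Each of the 3 genes had 10 reads or more in each library, as did 273 of all 2202 annotated genes (12.4%). The order Mir22, Mir132, Mir212 held in both libraries with no overlap of the levels. A read of this assay holds a whole mature miRNA, so levels were not divided by hairpin length. Divided by it and rescaled to a total of 1000000, the means were 34602 for Mir22, 721 for Mir132 and 15.6 for Mir212, in the same order. The antisense column held 0 reads for each of the 3 genes in both libraries.

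Their neighbours in the order of mean level did not differ from them beyond the spread of the libraries. Genes next to each other in that order have close means by construction, so this describes their place only. Mir22, at place 9, lay between Mir139 (44696 ± 2411 CPM) and Mir23a (42206 ± 13034), and its range over the libraries overlapped that of 9 other genes. Mir132, at place 82, lay between Mir532 (616.2 ± 127) and Mir411 (585.8 ± 121), and overlapped 8 genes. Mir212, at place 230, lay between Mir669l (18.5 ± 4.20) and Mir329 (18.3 ± 1.64), and overlapped 34.

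Likeness to other genes was measured as the distance in log2(CPM + 1) over the 2 libraries, so it can show only a similar level and a similar ratio. The genes nearest to Mir22 were Mir99a (distance 0.904), Mir143 (0.951) and Mir126a (1.00), and none of these had as large a difference between libraries, with log2 ratios of 0.16, -0.04 and 0.38. Mir132 had closer company in Mir10b (0.294), Mir181c (0.303) and Mir16-1 (0.398). Mir212 was nearest to Mir183 (0.153), Mir329 (0.164) and Mir362 (0.257), all with few reads. None of these 9 genes lies on chromosome 11.

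Between the libraries, Mir22 differed by more than 2-fold while Mir132 and Mir212 differed little. Mir22 was 2.47-fold higher in library 2, with an exact conditional binomial 95% interval of 2.45 to 2.50. The ratio was 1.16 for Mir132 (1.07 to 1.26) and 1.04 for Mir212 (0.636 to 1.71). These intervals hold counting error only, since each side is 1 library, and they compare these libraries, not conditions.

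Of the 3 genes, 1 was 2-fold or more higher in library 2, against 26 of the 344 genes with 10 or more reads (7.56%), and none was so in library 1, against 47 (13.7%), or 73 in either direction (21.2%). As a log2 ratio of library 2 over library 1, with 0.5 added to each count, Mir22 stood at 1.31, Mir132 at 0.22 and Mir212 at 0.06. The median over the 344 genes was -0.19. A ratio of the size of that of Mir22 or larger, in either direction, was reached by 43 of the 344 genes (12.5%). Among the 141 genes with mean levels of at least 100 CPM, 9 reached it, while 10 were 2-fold or more higher in library 2 (7.09%) and 7 in library 1 (4.96%).

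TMM scaling, which sets library totals by a trimmed mean of gene ratios and moves the median ratio by 0.19 to 0.00, gave 1.5 for Mir22, 0.41 for Mir132 and 0.25 for Mir212. The counts over all genes were then 34 higher in library 2 and 32 higher in library 1. Mir22 itself fills a larger part of library 2, 6.05% (6.01 to 6.08) against 2.45% (2.43 to 2.47) of library 1, which lowers the CPM of every other gene there. With Mir22 left out of the totals, Mir132 stood at 582 and 704 CPM and Mir212 at 18.5 and 20.0. Their log2 ratios were then 0.27 and 0.12, smaller moves than with TMM. For Mir212 this is no direction, since the counting interval of its ratio runs from 0.636 to 1.71.

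**Figure D3:**
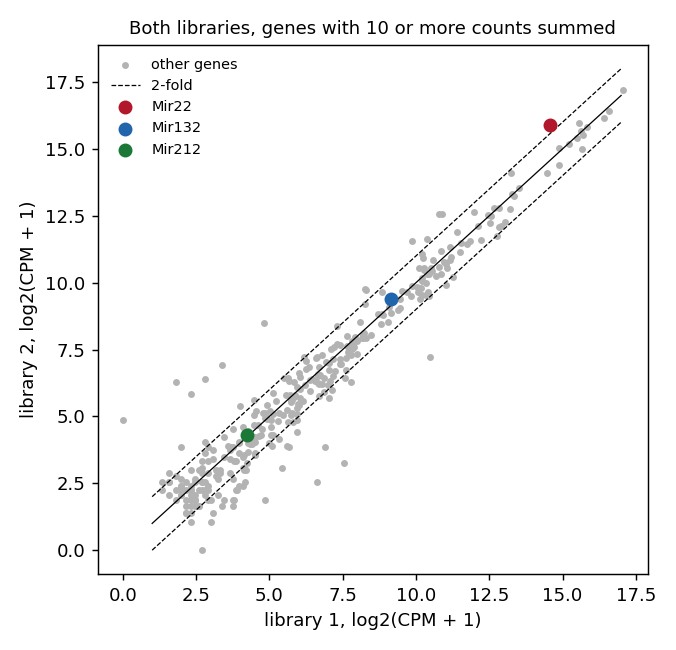
Level in library 2 against library 1 as log2(CPM + 1) for the 344 genes with 10 or more reads summed, with equality as a solid line and 2-fold as dashed lines. Mir22 lies above the upper dashed line, while Mir132 and Mir212 lie close to equality.

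The summed markers of cell types are given beside this difference. From library 1 to library 2 the cardiac muscle list went from 0.856% to 0.670% of assigned reads, the endothelial list from 4.89% to 6.38%, the smooth muscle list from 3.95% to 3.87%, the leukocyte list from 0.689% to 0.678% and the erythroid list from 0.245% to 0.197%. The smooth muscle and leukocyte sums were thus nearly equal in the 2 libraries, but not each of their genes was. By log2 ratio, Mir150 (0.45) and Mir342 (0.25) were above 0. Mir142 (-0.41), Mir155 (-0.30) and Mir223 (-0.17) were below 0. In smooth muscle, Mir143 was at -0.04 and Mir145a at 0.19. The endothelial sum was nearly all Mir126a (0.38), as Mir126b had 3 and 0 reads. In the erythroid list, Mir451a was at -0.74, Mir486 at -0.04 and Mir144 at -0.03. Within the cardiac muscle list, 1 of 7 genes, Mir499, had a log2 ratio above 0 (1.23), like Mir22 at 1.31. The other 6 were below 0, from -0.07 for Mir1a-2 to -1.28 for Mir133a-2, with Mir208a at -1.05. Of these 6, Mir1a-1 (5 and 4 reads), Mir133a-1 (5 and 3) and Mir133a-2 (6 and 2) had fewer than 10 reads summed. The median over the 344 genes with 10 or more reads was itself below 0, at -0.19. The part of cell make-up in the difference of Mir22 was not tested, and in whole tissue fewer cells of a type cannot be told apart from less RNA per cell.

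Mir132 and Mir212 are also known from neurons, so the neuronal markers are given beside them. That list took 0.0274% of assigned reads in library 1 and 0.0185% in library 2, with Mir128-1 alone at 174 and 125 CPM, and Mir132 took 0.0568% and 0.0661%. Its 3 Mir124a loci and 2 of its 3 Mir9 loci held 0 reads in both libraries. However, 12 of the 14 listed loci share 22 bases with another locus, so their reads can be missing. Mir137, which shares none, was at 22.01 and 11.3 CPM, while Mir153, which also shares none, had 3 and 0 reads. The part of neuronal RNA in the levels of Mir132 and Mir212 was not tested.

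Within the Mir212 and Mir132 pair, nearly all reads fell on Mir132. The ratio of Mir132 to Mir212 was 31.6 in library 1 (exact conditional binomial 95% interval 22.7 to 45.3) and 35.2 in library 2 (25.2 to 50.8), so the log2 ratio averaged 5.06 ± 0.112 (SD, n = 2). This ratio is taken within a library and does not depend on scaling. Mir212 gave 3.07% (2.16 to 4.23) of the reads of the pair in library 1 and 2.76% (1.93 to 3.82) in library 2. The pair summed to 586 and 680 CPM, so the reads of genes carrying the shared 3p seed came almost wholly from the Mir132 hairpin. The reads of the arms were not separated, so the share that carries the seed itself was not measured.

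This imbalance was on the large side among neighbouring miRNA genes. Pairs were formed of adjacent miRNA genes on 1 strand at most 10000 bases apart, each with 10 or more reads summed. Of the 60 pairs in which neither gene shares 22 bases with another locus, 7 had a mean log2 ratio as large as that of Mir132 over Mir212 or larger, itself included, and the median pair differed by 5.30-fold. With 0.5 added to each count, the ratio of the Mir132 and Mir212 pair moved by 0.157 log2 units between the libraries, against a median of 0.50, and 7 pairs moved less. Mir212 had 36 reads in library 1 and 35 in library 2, so counting error covers a shift of this size. The small shift therefore cannot show a steadier pair. These ranks are descriptions with no test.

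**Figure D4:**
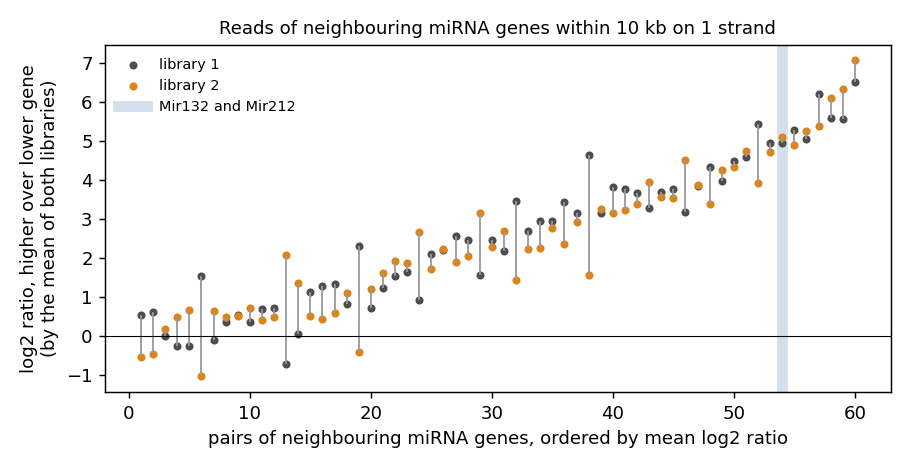
Log2 ratio of reads within each of 60 pairs of neighbouring miRNA genes, as higher over lower gene by the mean of both libraries, with 1 point per library joined by a line and pairs ordered by their mean. Mir132 and Mir212 (shaded) lie near 5 in both libraries, towards the upper end.

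Mir22 was far more abundant than either neighbour on the chromosome. It exceeded Mir132 by 43.1-fold in library 1 (40.6 to 45.7) and by 91.4-fold in library 2 (86.5 to 96.8), and these intervals do not overlap. Against Mir212 the ratio was 1359 (982 to 1941) and 3219 (2314 to 4621). Of 137 miRNA genes on chromosome 11, 60 had a read and 15 had a mean of 100 CPM or more. Mir22 gave 55.9% of all chromosome 11 miRNA reads in library 1 and 73.8% in library 2.

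No other annotated miRNA gene within 1 Mb of the 3 genes had more than 1 read. Mir6926 had 1 read in library 1 and 0 in library 2. Mir3971, the nearest one downstream of Mir22, had 0 in both, where 3 counts, the limit that 0 reads allow, come to 1.5 CPM in library 1 and 1.61 in library 2. Gm47300, which lies between Mir132 and Mir22, also had 0 reads, but it shares 22 bases with another locus and its 0 sets no limit.

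Among 20 miRNA genes listed as reported to promote hypertrophy or heart failure, Mir22 had the highest mean level, though in library 1 Mir23a was higher. Mir132 was at place 12 and Mir212 at place 17. Mir22 alone gave 23.7% of the reads of the list in library 1 and 48.2% in library 2. Mir23a, known to repress the atrophy factor MuRF1, had a mean of 42206 ± 13034 CPM (SD, n = 2), with 51422 CPM in library 1 against 24473 for Mir22 and 32990 in library 2 against 60488. The order of these 2 genes thus turned between the libraries. Next came Mir27b at 5249 ± 1685 CPM and Mir208a, the miRNA carried by the alpha myosin heavy chain gene, at 5198 ± 2553. Mir21a, known from cardiac fibroblasts, was at 3959 ± 3088. Mir155, Mir34a, Mir499, Mir221, Mir214 and Mir195a lay between 1573 and 3341 CPM. Mir199a-1 had 0 reads, but it shares 22 bases with other loci.

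Genes of this list lay on both sides between the libraries. Of its 19 genes with 10 or more reads, 3 were 2-fold or more higher in library 2 and 4 higher in library 1, beside 26 and 47 of all 344. Its median log2 ratio was 0.06, the value of Mir212, against -0.19 over all 344. Those higher in library 2 were Mir21a (1.79), Mir22 (1.31) and Mir499 (1.23). Those higher in library 1 were Mir222 (-1.49), Mir199a-2 (-1.33, from 17 and 6 reads), Mir214 (-1.05) and Mir208a (-1.05).

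A second list held 20 genes reported to restrain hypertrophy. It took 20.2% ± 0.903 of assigned reads (SD, n = 2) against 11.4% ± 1.56 for the promoting list. Its most abundant gene was Mir378a at 143048 ± 10180 CPM, 3.37-fold the mean of Mir22, and Mir26b (26041 ± 6194), Mir30d (13606 ± 5576) and Mir30a (10085 ± 180) came next. Mir29a, Mir98 and Mir145a lay between 1333 and 4470 CPM. Of its 14 genes with 10 or more reads, 2 were 2-fold or more higher in library 2, Mir26a-2 (3.73) and Mir29c (1.10). Mir185 (-3.24) was higher in library 1. Of all 344 genes, 26 were higher in library 2 (7.56%) and 47 in library 1 (13.7%). The median of the list was 0.17, against -0.19 over all 344. Because 12 of its 20 loci share 22 bases with another locus, against 5 of 20 in the promoting list, its members Mir1a, Mir133a, Mir26a, Mir9, Mir29b and Mir29c can be undercounted, among them both genes higher in library 2, and the shares of the lists are not compared further.

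**Figure D5:**
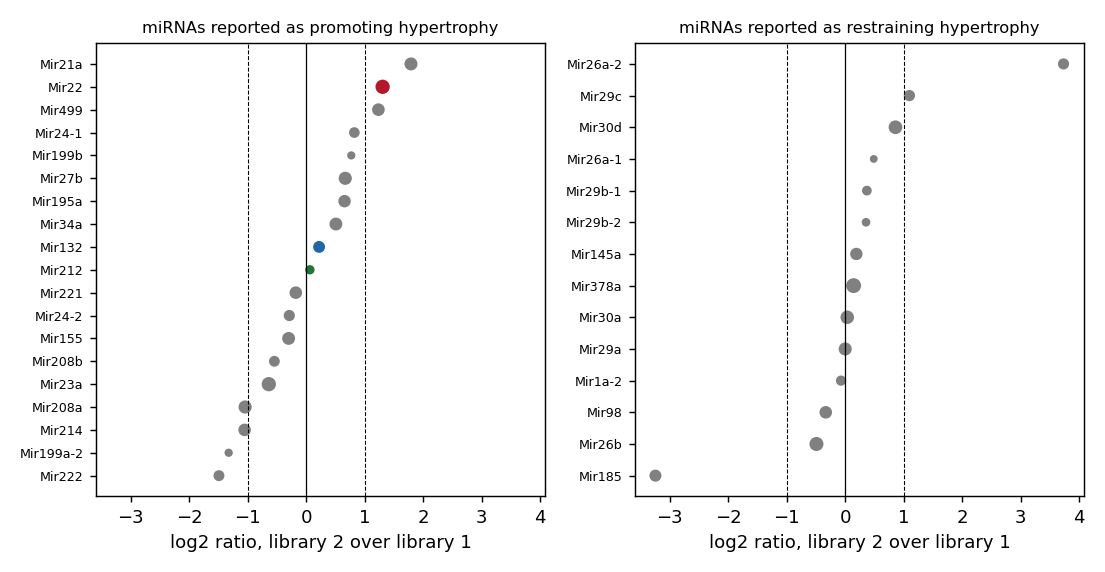
Log2 ratio of library 2 over library 1 for genes with 10 or more reads summed, 19 reported to promote hypertrophy (left) and 14 reported to restrain it (right), with dashed lines at 2-fold and larger points for higher mean CPM. Mir22 lies past 2-fold on the side of library 2, and Mir132 and Mir212 (blue and green) lie near 0.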

How the data were processed

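Per the labels' protocols, short RNA libraries were made from mouse heart tissue, and 2 samples were used. With 1 group there is no contrast, so no p-value was computed. Both samples carry the same donor record, so SDs measure only the spread between these samples, which may be technical. The deposited tables hold raw read counts per miRNA gene on mm10 with annotation M21, per the text deposited beside them; which aligner and counter made them is not given in the sources used here. Each table's 4 rows naming no gene were left out of totals, and the sense-strand column was used. The counts of the 2 libraries were not identical.

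All 2202 identifiers matched GENCODE M21, and 1032 symbols matched the RefSeq sequence table, all 3 members included. Ratios of counts have exact conditional binomial intervals (scipy 1.17.1). Genes with 10 or more counts summed entered the comparison of libraries, in which a gene was called at 2-fold or more. TMM came from edgeR 4.0.16 and size factors from DESeq2 1.42.0. The members and lists were chosen with earlier results of these data known. Genes named are the members, miRNA genes within 1 Mb or with a shared seed, the 3 nearest in level, neighbours in order, and list genes at 1000 CPM or past 2-fold. Cell type markers are named from their own lists. Mir199a-1, and Mir9, Mir26a and Mir29 loci named for shared sequence, fall outside this rule, as do the genes of the closing observations; they were chosen after their values were seen. Alternatives covered strands, denominators, scaling, filters, pseudocounts, fold thresholds, hairpin length and each replicate left out.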

Additional observations from a re-analysis of the deposited data

How the results depend on the processing

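Of 52 values under an alternative that kept both replicates, 30 stayed within the SD, the counting interval or 1.5 times the count, and 22 moved, while none of the 3 genes changed the side on which its library ratio lay. For levels the bound is the SD of 2 libraries, wide for Mir22 (25466 CPM) and narrow for Mir212 (0.556 CPM). The tally of 30 and 22 therefore does not measure how robust the levels are. With all reads as the denominator, the mean levels were 15977 (Mir22), 230 (Mir132) and 6.86 CPM (Mir212). With both strands counted, Mir132 was at 799 and Mir212 at 23.9 CPM. Their read counts are unchanged in that column, so the rise reflects its smaller total. With the most abundant gene left out of the totals, Mir132 and Mir212 were at 718 and 21.5, and per base of hairpin at 721 and 15.6. Leaving Mir22 out of the totals, chosen after seeing the data, put Mir212 at 19.2. The log2 ratio of Mir22 was 1.35 with both strands, 1.37 over all reads, 1.33 without the most abundant gene, 1.5 with TMM and 1.5 with DESeq2 scaling, and that of Mir132 was 0.41 with either scaling. The log2 ratio of Mir132 over Mir212 was 5.52 per base of hairpin. Genes past 2-fold numbered 73, and 283 with 1 or more counts summed, 33 with 100 or more, 144 at 1.5-fold and 32 at 3-fold. The denominator and the thresholds change these values by construction. Leaving out each replicate gave 24473 (without library 2) to 60488 CPM (without library 1) for Mir22, 568 to 661 for Mir132, 18.0 to 18.8 for Mir212, and 4.98 to 5.14 for the log2 ratio of Mir132 over Mir212. No paired analysis was possible because the labels give 1 group. Depth limits Mir212 most, since its 36 and 35 reads leave its library ratio anywhere from 0.636 to 1.71.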

Other observations

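Mir22 is 1 of 43 genes, among the 141 at a mean of 100 CPM or more, whose hairpin overlaps an exon of a host gene on the same strand. Of these 43, 7 were 2-fold or more higher in library 2 and 1 was higher in library 1, beside 10 (7.09%) and 7 (4.96%) of all 141. The 7 were Mir22, Mir21a, Mir140, Mir26a-2, Mir29c, Mir31 and Mir1839. An exon of any annotated transcript counted, so a hairpin that is intronic in other transcripts of its host is also placed here. The hosts of Mir1839 include an entry under its own name. Of the 62 hairpins in introns, which include Mir132, 2 were higher in library 2 and 3 in library 1, and of the 36 outside host genes 1 and 3 were. The median log2 ratio was 0.01 for hairpins in exons, -0.23 for those in introns and -0.22 for those outside. This grouping and these genes were chosen after the values were seen, the difference between the groups was not tested, and Mir26a-2 and Mir29c each share 22 bases with another locus.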
